A study of Mus musculus with 10 samples.

Results

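Akt1, Akt2, Pdpk1, Sgk1, Pim1, Pim2 and Pim3 encode serine/threonine kinases that promote cell survival and growth, and their transcripts were followed here in the lactating mammary gland of 2 inbred mouse strains. Members were all probesets whose platform annotation gave 1 of these 7 symbols and no other. They numbered 13 of the 22626 probesets other than controls, and 11 of the 13 passed the filter on low intensity and were tested. QSi5 is an inbred strain selected for fecundity, and CBA (CBA/CaH in the study's methods) is a non-selected inbred strain. Inguinal glands were taken on day 9 of the first lactation from 5 QSi5 and 5 CBA mice, for which no genetic change or treatment is named, and each mouse gave 1 array. The series record states a forced weaning after those 9 days, which the methods do not name. It gives the gland as the fourth, and the methods give it as the right inguinal gland. The MOE430 2.0 chip was used for 3 mice of each strain and the smaller MOE430A 2.0 chip for the other 2 of each strain, per the sample records.

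Akt kinases act downstream of phosphatidylinositol 3-kinase (PI3K). The lipid made by PI3K brings Akt and its activator Pdpk1 to the membrane, where Pdpk1 and the mTOR complex 2 phosphorylate it, and Sgk kinases are activated by the same pair of enzymes. Pim kinases have no such switch and are active once made, so that their amount is set largely by transcription, which cytokines induce through the Jak and Stat proteins, and by turnover. In the mouse mammary gland Akt1 is known for supporting milk lipid synthesis and for delaying the cell death of involution, the regression that follows weaning. The arrays measured RNA, and neither the phosphorylation nor the protein of these kinases.

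Promoters of the members are shown where transcription is the known point of control. RefSeq windows (GRCm38.p6, a reference made from another mouse strain, so that no base of QSi5 or CBA is shown) reach from 250 bases before to 50 bases after an annotated start, and all 7 genes matched, with 18 windows. Sgk1 was named for its induction by serum and glucocorticoids, and Pim2 is highly expressed in lymphoid cells, where octamer-binding factors act. The first window, at chr10:21993640-21993939 on the plus strand, has in capitals a match to a palindromic glucocorticoid response element. The second, at chrX:7878056-7878355 on the plus strand, has in capitals both matches to the octamer.
Sgk1: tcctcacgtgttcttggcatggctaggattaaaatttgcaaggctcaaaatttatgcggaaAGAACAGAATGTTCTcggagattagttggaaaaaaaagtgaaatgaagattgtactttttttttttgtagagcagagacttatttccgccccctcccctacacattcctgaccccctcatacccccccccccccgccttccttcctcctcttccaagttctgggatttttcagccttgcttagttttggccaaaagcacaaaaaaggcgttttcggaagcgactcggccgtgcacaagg
Pim2: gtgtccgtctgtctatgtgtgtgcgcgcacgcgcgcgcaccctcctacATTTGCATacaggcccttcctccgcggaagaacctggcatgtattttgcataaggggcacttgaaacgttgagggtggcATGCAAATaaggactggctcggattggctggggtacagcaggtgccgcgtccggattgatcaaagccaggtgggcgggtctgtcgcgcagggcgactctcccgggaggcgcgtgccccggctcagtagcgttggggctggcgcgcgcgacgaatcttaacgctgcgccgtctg
The glucocorticoid element searched was AGAACA and TGTTCT with any 3 bases between, on both strands. It was held by 3 of 32851 windows of all genes (0.00913%), of which the Sgk1 window was 1, with its first base 189 bases before that start. The octamer ATGCAAAT was held by 1.74% of all windows and, among the members, by that of Pim2, at 202 bases (as its reverse complement) and 123 bases before the start. The element TTCNNNGAA, which Stat proteins can bind, was in 3 of the 18 windows, of Akt2, Sgk1 and Pdpk1, beside 8.3% of all windows. GTAAACA, which Foxo proteins can bind, was in 2, of Akt1 and Pim1, beside 3.65%. No match of one motif overlapped a match of another in these windows. A match describes the reference and does not show that a factor bound there.

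The deposited values are log2 intensities. Levels of a probeset depend on its probes as well as its transcript, so levels are compared between mice and never between probesets. Each difference is the QSi5 mean less the CBA mean in log2 units, with its SE from limma. A probeset was called where limma's p, adjusted by Benjamini-Hochberg (BH) over all 11501 tested probesets (7405 genes), was under 0.05. Tested probesets averaged over 20 unlogged (4.32 in log2) in QSi5, in CBA or in both. Array medians lay between 4.21 and 4.30, and arrays of the same strain correlated at a median of 0.983 across probesets, those of different strains at 0.976. All 12 secretory epithelium markers passed the filter, and their summed unlogged intensity was 96358 to 102860 in QSi5 and 91127 to 97808 in CBA. The brightest casein and Wap probesets weigh most in this sum and varied little. Wap read 14.16 to 14.25 in QSi5 and 14.12 to 14.26 in CBA. By limma 1 of the 12 markers was called higher (Xdh, 0.73) and 1 lower (Krt8, -0.83) in QSi5. Of 7 adipocyte, 7 myoepithelial and 5 endothelial markers 0 were called (1, 0 and 1 at an unadjusted p under 0.05). In whole gland, fewer cells of a type and less RNA per cell cannot be told apart. The QSi5 replicate 4 array stood apart in lymphocyte transcripts. Its Cd79a, of the B cell receptor, was 5.90, against 3.30 to 3.76 in the other 9 mice, and its Ms4a1, a B cell surface protein, was 6.39, against 2.96 to 3.46.

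Of the 11 tested member probesets 1, that of Pim2, was called, and it was higher in QSi5. Over all tested probesets 336 were called (2.92%), 165 of them higher (1.43%) and 171 lower (1.49%) in QSi5. Differences of the members were positive for 8 probesets and negative for 3, with a median of 0.30 beside 0.00 over all tested probesets. At an unadjusted p under 0.05 there were 5 members, all higher in QSi5, where 15% of all probesets passed in either direction and 6.83% passed as higher. For 2 of the members, probesets of Pim2 and Pim1, the strains did not overlap, beside 5.11% of all tested probesets, and in both every QSi5 mouse lay above every CBA mouse, as in 2.5% of all. The 5 at an unadjusted p under 0.05 were 1 probeset each of Akt1, Pim1 and Pim2 and both tested probesets of Pim3.

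**Figure D1:**
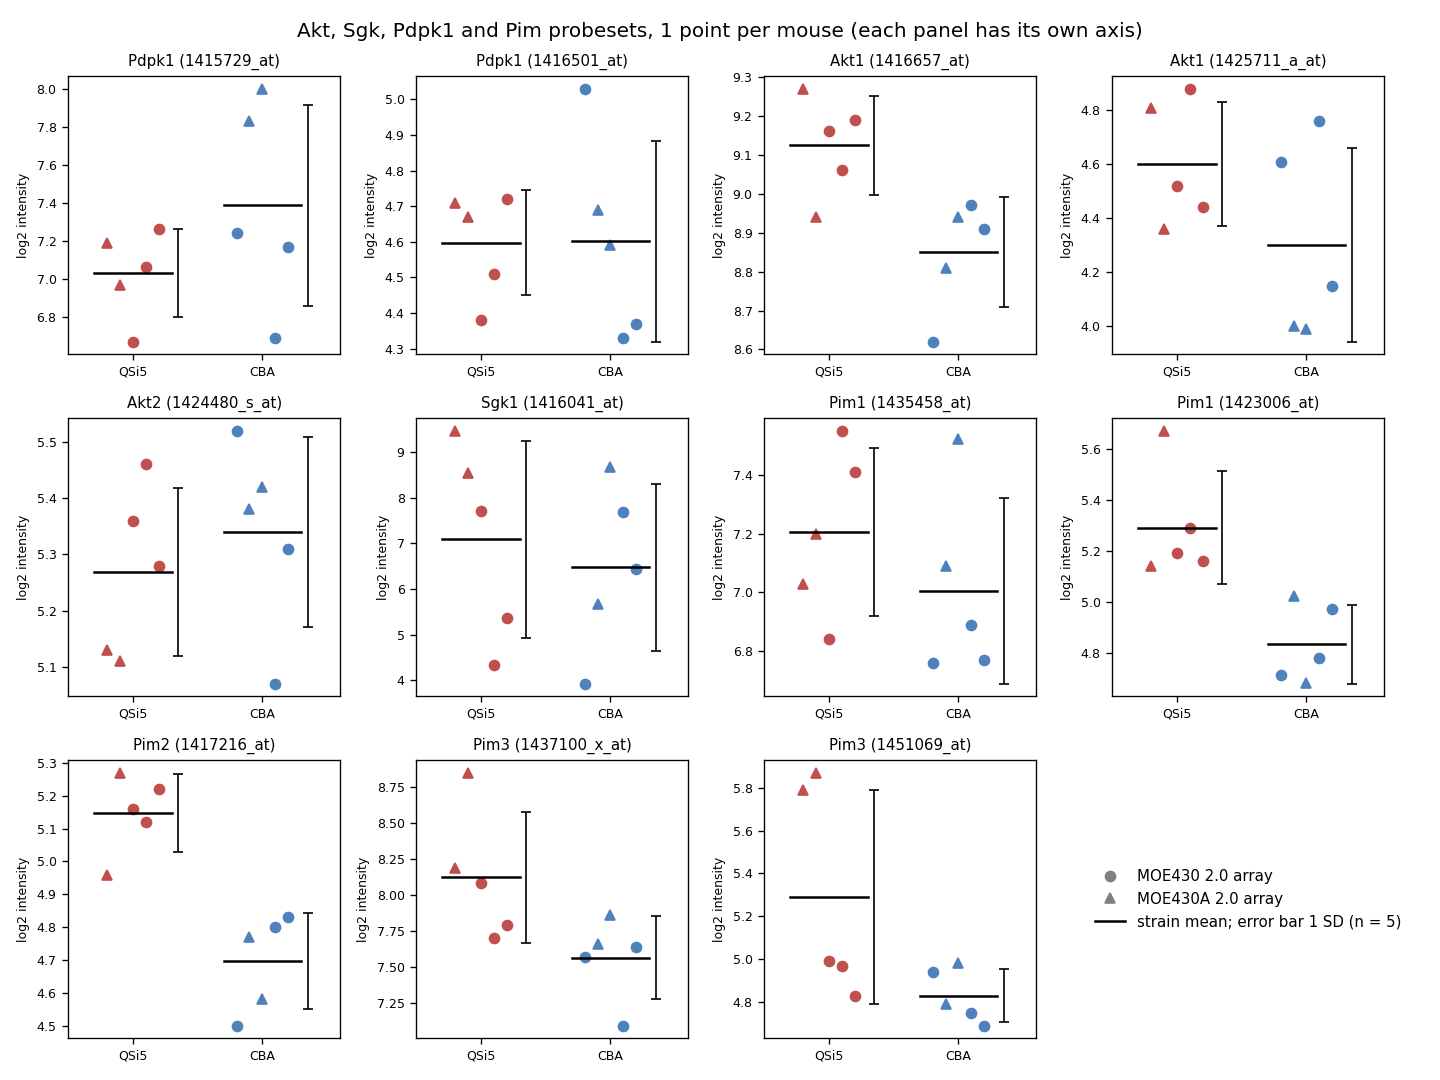
The 11 tested probesets, with log2 intensity on the vertical axis of each panel and the strain on the horizontal axis; each point is 1 mouse (QSi5 red, CBA blue, circles MOE430 2.0 and triangles MOE430A 2.0 arrays), lines are strain means and bars 1 SD (n = 5 per strain). The strains do not overlap for Pim2 (4.96 to 5.27 in QSi5, 4.50 to 4.83 in CBA) or for the dimmer Pim1 probeset, and Sgk1 spans 4.34 to 9.47 in QSi5 and 3.93 to 8.67 in CBA.

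Pim2 transcript was higher in QSi5 glands by 1.36-fold, at a low intensity and with little spread in either strain. Pim2 encodes a constitutively active kinase that phosphorylates the cell death protein Bad and the translation repressor 4E-BP1. The study named Pim2, as well as Pim1, from these same arrays, so that the values of both are not independent of that choice. The only Pim2 probeset (1417216_at) read 4.96, 5.27, 5.16, 5.12 and 5.22 in QSi5 mice, against 4.50, 4.77, 4.58, 4.80 and 4.83 in CBA mice (replicates 1 to 5 of each strain). The lowest QSi5 mouse lay above the highest CBA mouse. Means were 5.15 ± 0.12 in QSi5 and 4.70 ± 0.15 in CBA (SD, n = 5 each), a difference of 0.45 (SE 0.10, 95% interval 0.22 to 0.67, 1.36-fold, BH-adjusted p = 0.0386 by limma). The exact permutation test, two-sided, gave p = 0.00794, the smallest that 5 mice against 5 allow. The MOE430 2.0 arrays taken alone gave 0.46 and the MOE430A 2.0 arrays 0.44, and with chip type as a block, a fit that called 413 probesets (3.59%), the adjusted p was 0.0392. The call was lost on leaving out any 1 of QSi5 replicates 2, 3, 4 and 5 or CBA replicates 1, 2 and 3, with differences of 0.40 to 0.47 and adjusted p of 0.0685 to 0.106. It was also lost on the MOE430 2.0 arrays alone (adjusted p = 0.203) and on the MOE430A 2.0 arrays alone (adjusted p = 0.535), which hold fewer mice, and a stricter filter at 50 unlogged leaves Pim2 out.

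Lymphocyte transcripts are given beside Pim2 because Pim2 is abundant in lymphoid cells. Of 12 measured B and plasma cell markers 9 were tested, and on the brightest probeset of each gene 0 were called by limma (1 at an unadjusted p under 0.05), with 8 positive differences and a median of 0.37. A dimmer probeset of Ighm, the immunoglobulin M heavy chain, was called higher in QSi5 (1425247_a_at, difference 1.21, SE 0.19, adjusted p = 0.00307). It read 5.35, 4.91, 5.35 and 5.61 in QSi5 replicates 1, 2, 3 and 5 and was higher still in QSi5 replicate 4, against 3.95, 4.58, 4.24, 4.30 and 4.11 in CBA mice. As for Pim2, every QSi5 mouse lay above every CBA mouse. The brightest Ighm probeset read 7.87 to 8.28 in QSi5 and 7.64 to 7.86 in CBA (difference 0.33, SE 0.10, adjusted p = 0.134). The summed unlogged intensity of the list ranged over 5404 to 7201 in QSi5 and 3959 to 8990 in CBA, so the strains overlapped in this sum. The brightest probesets weigh most in it, and QSi5 replicate 4, despite its Cd79a and Ms4a1, stood at 6128. Of 15 measured T and myeloid markers 8 were tested and 0 were called (1 at an unadjusted p under 0.05), with sums of 697 to 1541 in QSi5 and 699 to 3203 in CBA. In QSi5 replicate 4, the mouse with the high Cd79a and Ms4a1, the pan-leukocyte marker Ptprc was 8.10, against 3.77 to 5.56 in the other 9 mice. Its Pim2 value, 5.12, lay inside the range of the other QSi5 mice, and without it the difference was 0.45 with an adjusted p of 0.0762. The part of Ighm and of the marker list as a whole in the Pim2 difference was not tested.

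**Figure D2:**
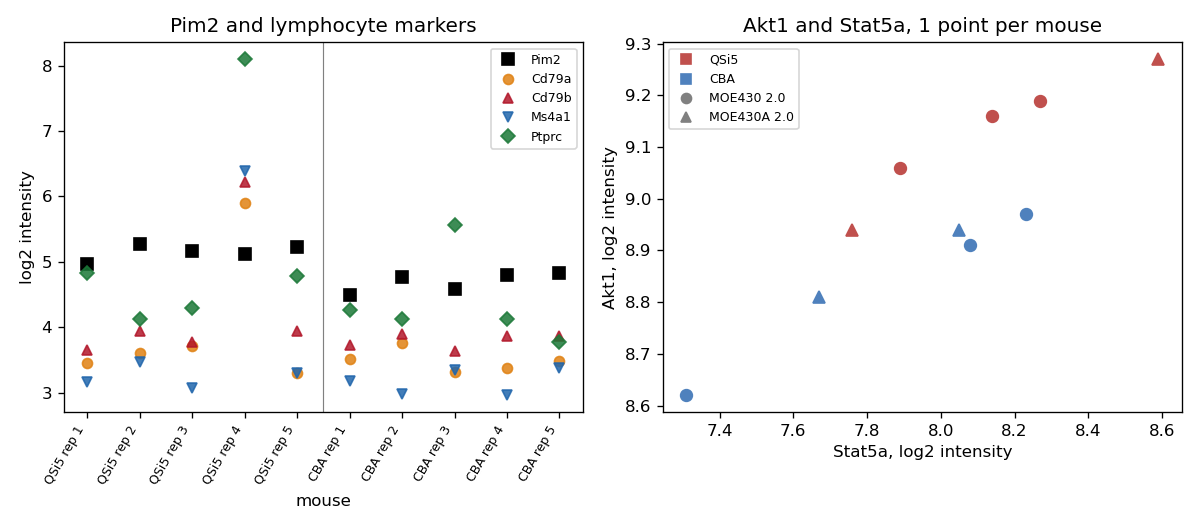
Left, log2 intensity (vertical axis) of Pim2 and of 4 leukocyte genes in each mouse (horizontal axis, QSi5 left of the line and CBA right of it); right, Akt1 against Stat5a in log2 intensity, 1 point per mouse, coloured by strain and shaped by chip type. The leukocyte genes peak in QSi5 replicate 4 (Ptprc 8.10) while its Pim2 is 5.12, and CBA replicate 1 is lowest for both Akt1 (8.62) and Stat5a (7.31).

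Pim1 was measured by 2 probesets that differed in how well they separated the strains. Pim1 is the founding Pim kinase and a known target gene of Stat3 and Stat5, and like Pim2 it was named by the study from these arrays. The dimmer probeset (1423006_at) read 5.14, 5.67, 5.19, 5.29 and 5.16 in QSi5 mice, against 4.71, 5.02, 4.68, 4.78 and 4.97 in CBA mice. Every QSi5 mouse lay above every CBA mouse, and QSi5 replicate 2 was the highest. The difference was 0.46 (SE 0.13, 95% interval 0.18 to 0.73), with an unadjusted p of 0.00344 and a BH-adjusted p of 0.0868 by limma, and was therefore not called. The MOE430 2.0 arrays alone gave 0.39 and the MOE430A 2.0 arrays 0.55, and the exact permutation p was again 0.00794. The brighter probeset (1435458_at) read 7.03, 7.20, 6.84, 7.55 and 7.41 in QSi5 mice, against 6.76, 7.09, 7.52, 6.89 and 6.77 in CBA mice. The strains overlapped, since CBA replicate 3 lay above all but 1 of the QSi5 mice. Its difference was 0.20 (SE 0.17, 95% interval -0.18 to 0.58, adjusted p = 0.649), and it had opposite signs on the chip types, 0.46 on the MOE430 2.0 and -0.19 on the MOE430A 2.0 arrays (adjusted p of the interaction by limma 0.886).

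Pim3 showed the same direction on both tested probesets without a call. Pim3 is the remaining kinase of the family and shares substrates with Pim1 and Pim2. The brighter probeset (1437100_x_at) carries the suffix by which Affymetrix marks probes that can match other sequences, so its values may not be of Pim3 alone. It read 8.19, 8.85, 8.08, 7.70 and 7.79 in QSi5 mice, against 7.57, 7.66, 7.86, 7.09 and 7.64 in CBA mice. QSi5 replicates 1, 2 and 3 lay above all CBA mice, whereas QSi5 replicates 4 and 5 lay below CBA replicate 3. The difference was 0.56 (SE 0.21, 95% interval 0.10 to 1.02, adjusted p = 0.23, exact permutation p = 0.0397), and with chip type as a block the adjusted p was 0.0972. The dimmer probeset (1451069_at) read 5.79, 5.87, 4.99, 4.97 and 4.83 in QSi5 mice, against 4.94, 4.79, 4.98, 4.75 and 4.69 in CBA mice. The high values were those of the 2 QSi5 mice on the MOE430A 2.0 chip, and the other QSi5 mice overlapped the CBA mice. Its difference of 0.46 (SE 0.20, adjusted p = 0.308) was 0.14 on the MOE430 2.0 and 0.95 on the MOE430A 2.0 arrays, an interaction of 0.81 with an unadjusted p of 0.00192 and an adjusted p of 0.886. No probeset of the series (0 of 11501) was called for this interaction, while 5.47% had an unadjusted p under 0.05. The third probeset (1438956_x_at) stayed under the filter, at 3.52 to 4.03 in QSi5 and 3.46 to 3.94 in CBA.

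Akt1 was higher in QSi5 by a small margin on its brighter probeset, and the call was not reached. Akt1 is the Akt isoform best known for survival signalling in the mammary gland. The brighter probeset (1416657_at) read 9.27, 8.94, 9.16, 9.06 and 9.19 in QSi5 mice, against 8.62, 8.81, 8.94, 8.97 and 8.91 in CBA mice. QSi5 mice other than replicate 2, 4 in number, lay above every CBA mouse, and CBA replicate 1 was the lowest. Means were 9.12 ± 0.13 in QSi5 and 8.85 ± 0.14 in CBA (SD, n = 5 each), a difference of 0.27 (SE 0.10, 95% interval 0.05 to 0.50, 1.21-fold). The unadjusted p was 0.0222 and the adjusted p 0.236 by limma, and the exact permutation p was 0.0238. Both chip types gave the same sign, with 0.31 on the MOE430 2.0 and 0.22 on the MOE430A 2.0 arrays. The dimmer probeset (1425711_a_at) read 4.36 to 4.88 in QSi5 and 3.99 to 4.76 in CBA, with a difference of 0.30 (SE 0.17, adjusted p = 0.477).

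Akt2 did not differ beyond the spread between mice. Akt2 is the isoform known for insulin-stimulated glucose uptake. Its tested probeset (1424480_s_at) read 5.13, 5.11, 5.36, 5.46 and 5.28 in QSi5 mice, against 5.52, 5.38, 5.42, 5.07 and 5.31 in CBA mice. The strains overlapped throughout, with the lowest value in CBA replicate 4 and the highest in CBA replicate 1. The difference was -0.07 (SE 0.11, 95% interval -0.32 to 0.17, adjusted p = 0.82), with 0.07 on the MOE430 2.0 and -0.28 on the MOE430A 2.0 arrays. The suffix of this probeset marks probes shared by several transcripts, and RefSeq lists an Akt2 pseudogene, so these values may not be of Akt2 alone. The other Akt2 probeset (1421324_a_at) stayed under the filter, at 3.43 to 3.77 in QSi5 and 3.54 to 3.73 in CBA.

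Pdpk1, the kinase that activates Akt and Sgk proteins, had 2 probesets that did not separate the strains. The brighter (1415729_at) read 7.19, 6.97, 6.67, 7.06 and 7.26 in QSi5 mice, against 7.24, 7.83, 8.00, 6.69 and 7.17 in CBA mice. The 2 high values, of CBA replicates 2 and 3, were those of the CBA mice on the MOE430A 2.0 chip, and the other CBA mice lay within the QSi5 range. The difference was -0.36 (SE 0.23, 95% interval -0.85 to 0.14, adjusted p = 0.518), and it was -0.04 on the MOE430 2.0 and -0.84 on the MOE430A 2.0 arrays (adjusted p of the interaction by limma 0.886). The dimmer probeset (1416501_at) read 4.38 to 4.72 in QSi5 and 4.33 to 5.03 in CBA, with a difference of 0.00 (SE 0.14, 95% interval -0.31 to 0.30).

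**Figure D3:**
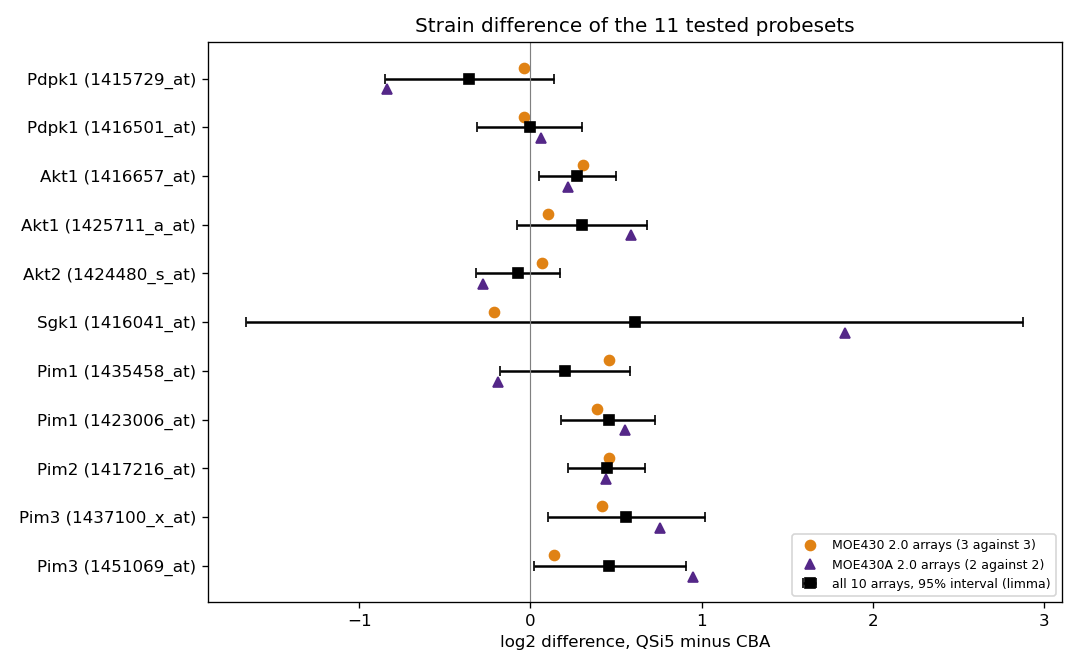
Log2 difference, QSi5 minus CBA (horizontal axis), of the 11 tested probesets (vertical axis); squares are the fit on all 10 arrays with its 95% interval, circles the MOE430 2.0 arrays (3 against 3 mice) and triangles the MOE430A 2.0 arrays (2 against 2). Pim2 is near 0.45 on every estimate, whereas Sgk1 runs from -0.21 on the MOE430 2.0 to 1.84 on the MOE430A 2.0 arrays.

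Sgk1 varied between mice of the same strain far more than between the strains. It encodes serum/glucocorticoid regulated kinase 1, which is known for raising epithelial sodium transport by restraining the ubiquitin ligase Nedd4l. Its probeset (1416041_at) read 9.47, 8.55, 7.72, 4.34 and 5.36 in QSi5 mice, against 3.93, 5.67, 8.67, 7.69 and 6.43 in CBA mice. High and low mice were found in both strains, and the strains overlapped over most of the range. The highest and lowest QSi5 mice were 5.13 apart on the log2 scale (34.9-fold), and those of CBA 4.74 (26.7-fold). Means were 7.09 ± 2.17 in QSi5 and 6.48 ± 1.83 in CBA (SD, n = 5 each), a difference of 0.61 (SE 1.04, 95% interval -1.66 to 2.88, adjusted p = 0.84), so that no strain difference was detectable with this number of mice. The SD within strains was 2.01, beside a median of 0.22 over all tested probesets, and only 4 of the 11501, Sgk1 among them, had an SD this high. The other 3 were probesets of the serum amyloid genes Saa1 and Saa2, which encode acute phase proteins.

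Chip type moved with Sgk1 in part. With strain in the fit, its values were higher by 2.18 on the MOE430A 2.0 than on the MOE430 2.0 arrays (SE 0.89, unadjusted p = 0.0321, adjusted p = 0.25). Within the MOE430 2.0 arrays the values still ran over 4.34 to 7.72 in QSi5 and 3.93 to 7.69 in CBA. Of the members, 4 probesets differed by chip type at an unadjusted p under 0.05, beside 17.1% of all tested probesets, and 0 were called, beside 0.487%. The others were the brighter Pdpk1 probeset (0.48, adjusted p = 0.236) and both tested probesets of Pim3 (0.49 each, adjusted p = 0.18 for the brighter and 0.16 for the dimmer). Whether the chip itself or what the mice on it shared lay behind these values cannot be told apart. For Sgk1 the strain difference was -0.21 on the MOE430 2.0 and 1.84 on the MOE430A 2.0 arrays, and without CBA replicate 1 it was -0.03.

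Genes that regulate Sgk1, respond to the same hormone or lie downstream of it varied less between mice. Over all 10 mice Sgk1 spanned 5.54 on the log2 scale, and the widest of its list was Fkbp5, at 2.78. In a list of 12 tested Sgk1 regulators and targets, 1 gene was called, and it was higher in QSi5, with a median difference of 0.09. That gene was Nr3c1, the glucocorticoid receptor, whose brightest probeset read 7.90, 7.74, 7.99, 7.78 and 7.93 in QSi5 mice, against 7.39, 7.09, 7.18, 7.73 and 7.38 in CBA mice. The strains did not overlap, although CBA replicate 4 nearly reached the QSi5 mice. The difference was 0.51 (SE 0.13, adjusted p = 0.0499), which passed in 5 of 20 alternatives (highest adjusted p 0.329), and another Nr3c1 probeset gave 0.44 (adjusted p = 0.252). Fkbp5, a glucocorticoid-induced immunophilin, was 7.68 in QSi5 replicate 2, against 4.90 to 5.69 in the other 9 mice, while Sgk1 was highest in QSi5 replicate 1. Per1, a clock gene that glucocorticoids also induce, ranged over 4.42 to 5.35 in QSi5 and 4.66 to 5.46 in CBA. As for Sgk1, QSi5 replicate 1 was the highest of its strain, CBA replicate 3 the highest and CBA replicate 1 the lowest of theirs, over a range of 1.04. The lowest QSi5 mouse was not the same, replicate 5 for Per1 (4.42) and replicate 4 for Sgk1 (4.34). Other genes of the list ran opposite to Sgk1 in single mice on their brightest probesets. Tsc22d3 was highest in QSi5 replicate 4 (5.94), and Zbtb16 was lowest in CBA replicate 3 (4.18). The other tested Tsc22d3 probeset (1425557_x_at) had its extremes in the same mice as Sgk1. It was highest in QSi5 replicate 1 (4.88) and lowest in CBA replicate 1 (4.03). Its difference was 0.45 (SE 0.11, adjusted p = 0.0516 by limma). Ndrg1, a substrate of Sgk1, was highest at 11.30 in CBA replicate 1, the mouse with the lowest Sgk1, and lay between 9.40 and 10.43 in the others. Nedd4l was highest in the same mouse, at 6.95. The mouse with the next lowest Sgk1, QSi5 replicate 4 (4.34), did not share this on the brightest probesets. Its Ndrg1 was 10.03 and its Nedd4l 5.02. On other Ndrg1 probesets it was the highest of QSi5 (1450976_at, 8.85, against 9.97 in CBA replicate 1) or the lowest of QSi5 (1423413_at, 7.90). Over all QSi5 mice the brightest Ndrg1 probeset stayed at 9.83 to 10.03.

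**Figure D4:**
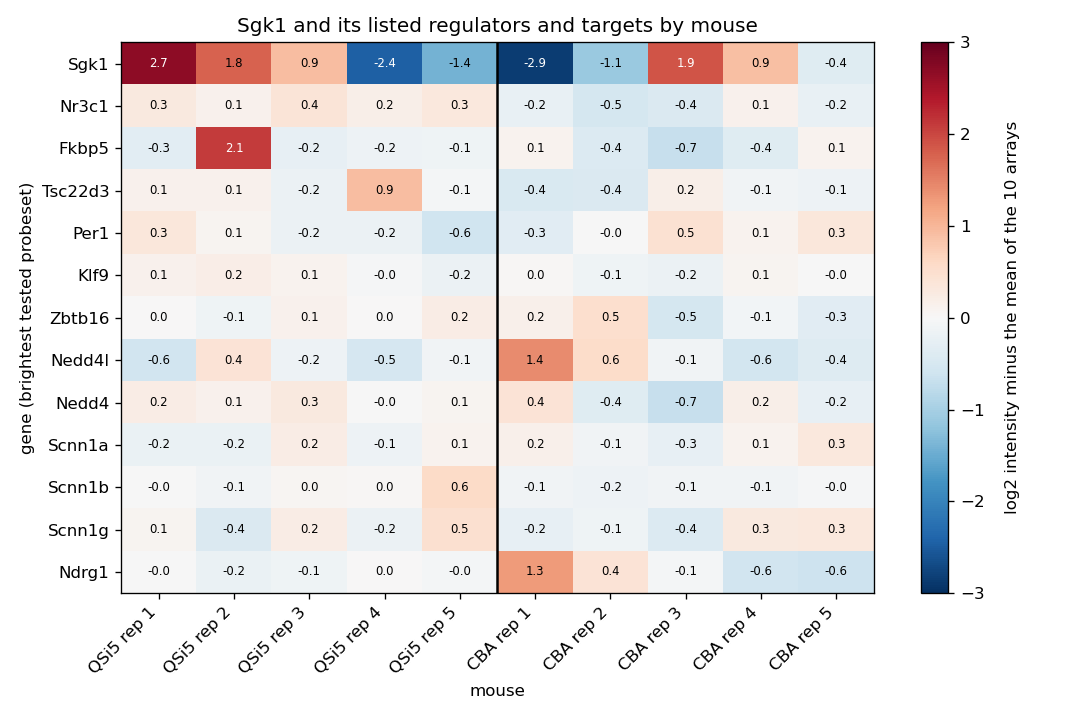
Sgk1 and the 12 tested genes of its list (vertical axis, each by its brightest probeset) in the 10 mice (horizontal axis, QSi5 left of the line and CBA right of it), coloured and labelled by log2 intensity minus that gene's mean over all arrays. Sgk1 has both the reddest and the bluest cells in either strain, and Per1, over a smaller range, is highest in the same mouse of each strain. The lowest QSi5 mouse is replicate 5 for Per1 and replicate 4 for Sgk1.

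The Sgk relatives did not share this spread. Sgk2, a kinase close to Sgk1, read 5.55, 4.35, 5.46, 5.40 and 6.23 in QSi5 mice, against 5.27, 5.19, 6.49, 5.82 and 5.62 in CBA mice (difference -0.28, SE 0.32, adjusted p = 0.74). Its lowest mouse, QSi5 replicate 2, was among the highest for Sgk1. Sgk3, which is recruited to endosomes, had 3 probesets, all under the filter at 2.82 to 3.60 in QSi5 and 2.97 to 3.85 in CBA. Among 8 tested relatives in the wider AGC kinase family, 0 were called higher and 1 lower in QSi5. This was Rps6ka3, the growth factor-activated kinase RSK2, at 5.04 to 5.62 in QSi5 and 5.71 to 6.34 in CBA (difference -0.67, SE 0.15, adjusted p = 0.0386), called in 8 of 20 alternatives, while its other probeset gave -0.17 (adjusted p = 0.625).

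Over 9 pathway lists, which cover genes upstream and downstream of the kinases and their relatives, 88 genes were tested on their brightest probeset and 4 were called, Nr3c1, Rps6ka3, Trib3 and Socs2, where 2.92% of all tested probesets were. Of 11 PI3K subunits, adaptors and receptors, 0 were called by limma and 0 had an unadjusted p under 0.05, with a median difference of 0.01. Pik3r1, the PI3K regulatory subunit p85 alpha, ranged over 6.15 to 7.39 in QSi5 and 6.42 to 8.43 in CBA on its brightest probeset. The difference was -0.75 (SE 0.37, adjusted p = 0.383). Its other tested probesets gave 0.18 (1425515_at, adjusted p = 0.586) and -0.35 (1451737_at, adjusted p = 0.265). The 4 tested genes of the mTOR complex 2 list were Mtor, Mlst8, Mapkap1 and Deptor, while Rictor and Prr5 stayed under the filter. On the brightest probesets all 4 differences were positive, with a median of 0.23, though that of Deptor was 0.02. Of these 0 were called (1 at an unadjusted p under 0.05), and the other tested Mapkap1 probeset gave -0.09. Of 9 phosphatases and inhibitors of Akt, 0 were higher and 1 was lower in QSi5, with a median of -0.18.

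Trib3 was the gene lowered in QSi5 on that list. It encodes a pseudokinase induced by amino acid shortage and endoplasmic reticulum stress that can bind Akt. Its brightest probeset (1456225_x_at) read 6.29, 7.01, 6.73, 6.91 and 6.94 in QSi5 mice, against 7.60, 7.96, 7.67, 7.65 and 7.36 in CBA mice. All QSi5 mice lay below all CBA mice. The difference was -0.87 (SE 0.15, adjusted p = 0.00803), the other probeset gave -0.75 (adjusted p = 0.00373), and the call was kept in 18 of 20 alternatives.

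Among 12 tested genes of prolactin and cytokine signalling to Stat proteins, 1 was called higher and 0 lower in QSi5, with a median of 0.17. This was Socs2, a Stat5 target gene that restrains growth hormone and prolactin signalling, and the study named it from these arrays too. It read 7.49, 7.05, 7.37, 7.10 and 7.65 in QSi5 mice, against 6.20, 6.86, 5.73, 6.17 and 6.44 in CBA mice. The strains did not overlap. The difference was 1.05 (SE 0.19, adjusted p = 0.0103), called in 19 of 20 alternatives, and its other probeset gave 0.73 (adjusted p = 0.0697). Stat5a, the main Stat protein of prolactin signalling, had a difference of 0.26 (SE 0.20, adjusted p = 0.599).

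Downstream, 0 of 15 tested Akt substrates and 0 of 11 tested Pim substrates and partners were called by limma, with medians of -0.08 for the Akt list and -0.12 for the Pim list. At an unadjusted p under 0.05 there were 2 of the Akt list and 4 of the Pim list. Bad, a cell death protein that both families phosphorylate, read 4.87 to 5.19 in QSi5 and 5.08 to 5.34 in CBA (difference -0.23, SE 0.10, adjusted p = 0.291). Eif4ebp1, which encodes 4E-BP1, read 8.49 to 8.75 in QSi5 and 8.65 to 9.36 in CBA (difference -0.43, SE 0.14, adjusted p = 0.143). The strains overlapped for both. On the same Pim list, Mknk2 (difference 0.35, SE 0.11, adjusted p = 0.15) and Mknk1 (0.23, SE 0.10, adjusted p = 0.311) went the other way, higher in QSi5. Of 10 tested immediate early genes, which serum and stress induce within minutes, 9 had negative differences, with a median of -0.26, and 0 were called (2 at an unadjusted p under 0.05). CBA replicate 1 was the highest for Fos, at 6.64, and for Ier3, at 7.01, against 4.86 to 5.43 and 4.82 to 5.20 in QSi5 mice.

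Markers of involution and the acute phase are given beside these kinases because Akt1 and Stat3 signalling are known from involution. Of 13 tested genes, 0 were higher and 4 were lower in QSi5, namely Saa1, Saa3, Orm1 and Timp1, with a median difference of -0.63 over the list. Of all tested probesets 1.49% were called lower. In the list 12 genes had negative differences, and 8 had an unadjusted p under 0.05 by limma, beside 15% of all tested probesets. Of 20 alternatives, the call was kept in 14 for Saa1, 10 for Saa3, 12 for Orm1 and 17 for Timp1. The summed intensity of the list was 5425 to 8816 in QSi5 and 6958 to 44503 in CBA, so the strains overlapped in their lower range. Stat3, which drives involution, was 9.46 in CBA replicate 1, against 7.10 to 8.37 in the other 9 mice. That mouse had the lowest values of Sgk1, Pim2 and the brighter Akt1 and Pim1 probesets, while its value on the dimmer Akt1 probeset, 4.61, was not low. It had the highest values of the tested Akt2 probeset (5.52) and the dimmer Pdpk1 probeset (5.03). The sum of the list was highest in another mouse, CBA replicate 3 (44503, against 19409 in CBA replicate 1). There Sgk1 was 8.67, the highest of CBA, and the brighter Akt1 probeset 8.94. The part of these markers in the kinase values was not tested.

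For each member, the genes most like it over the 10 mice are described by Pearson's r after the mean of each strain was subtracted. Because each is the highest of all tested probesets with 1 symbol, high values are built into the choice, and the points share chip types and normalization. Akt1 was most like Stat5a (r = 0.97), Adamts5 (0.97), an extracellular protease, and Aldh18a1 (0.97), an enzyme of proline synthesis. For Stat5a and Akt1, each on its brightest probeset, QSi5 replicate 1 was the highest and CBA replicate 1 the lowest of the 10 mice in both genes. Pdpk1 was most like Tpm3, Pum2 and Gna13 (0.98 each), and Akt2 like Mta2 (0.90), Ppp2r1a (0.89), a scaffold subunit of the phosphatase PP2A, and Usp48 (0.88). Sgk1 was most like Sephs2 (0.95), Zfp955a (0.95) and Nubp2 (0.92), whose own ranges were small, with Sephs2 at 5.44 to 5.95 in QSi5 and 5.55 to 5.92 in CBA. Pim1 was most like Emc10 (0.94), Mfng (0.92) and Ythdc1 (0.92), and Pim2 like Phf19 (0.91), Hoxc9 (0.91) and Eps8l2 (0.90). For Pim3 these were Atp12a (0.95), Zbtb17 (0.93) and Igbp1 (0.92).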

How the data were processed

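Mammary RNA of 5 QSi5 and 5 CBA mice was measured with 1 Affymetrix array per mouse, and strains were taken from the sample titles. The deposited log2 values are the authors' RMA output from the affy package (background correction, quantile normalization and probe summary, versions not given in the sources used here) on the 22690 probesets common to both chip types. Quantile normalization forces 1 distribution on all arrays, so a change of most transcripts together would not be seen. Of 22626 probesets other than controls, 20380 had 1 symbol in the platform annotation, 691 several and 1555 none, and those with a strain mean of unlogged values over 20 were kept. Strains were compared with lmFit and eBayes of limma 3.58.1 under R 4.3.3 (two-sided, BH over all 11501 kept probesets), and the script was tested on simulated data. Of 50 simulated probesets changed by 0.5 in log2, 25 were called in the right direction, and of 50 changed by 1, 41 were. Among the 179 calls of that test 14 were false. Exact permutation tests used SciPy 1.17.1 in Python 3.11.15, over 252 splits. The number of arrays limits the precision.

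Named are all members, up to 4 called genes per list with the largest difference, Sgk2 and Sgk3, and the 3 genes most like each member. Other names (among them Bad, Fkbp5, Ighm, Per1 and Stat5a) were chosen after their values were seen. The members and lists were chosen with earlier results of these data known. List genes stood by their brightest tested probeset. Alternatives were other intensity filters, a second quantile normalization, median centring, chip type as a fixed term, single chip types, a replicate block, an intensity trend, array weights, and each mouse left out in turn. The replicate numbers did not pair the mice.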

Additional observations from a re-analysis of the deposited data

Results flagged for a closer look

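The dimmer Pim1 probeset (1423006_at) had 1 QSi5 mouse far from the others. QSi5 replicate 2 read 5.67, and its gap to the nearest QSi5 mouse was 0.72 of the range of that strain, above Dixon's critical value of 0.71 for 5 samples. Chance gives such a sample in about 1 of 20 groups, and 26 groups were examined, with this 1 found. Leaving out each mouse in turn gave differences of 0.36 to 0.50 for this probeset.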

How the results depend on the processing

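Over all tested probesets the count called was 144 on the MOE430 2.0 arrays alone and 64 on the MOE430A 2.0 arrays alone, against 336, and 210 to 417 on leaving out 1 mouse (210 without QSi5 replicate 3 and 218 without QSi5 replicate 5). Members called numbered 0 with the filter at 50, with either chip alone and with the replicate block, and 0 to 1 on leaving out 1 mouse. For Pim2 the difference was 0.46 (adjusted p = 0.203) on the MOE430 2.0 arrays alone, 0.44 (0.535) on the MOE430A 2.0 arrays alone, 0.45 (0.0804) with the replicate block, and 0.40 to 0.50 on leaving out 1 mouse, all by limma. The replicate block called 255 probesets, but the numbers are shared labels only: deviations of equally numbered mice correlated at -0.25, 0.29, -0.37, 0.05 and 0.02. Signs turned for differences that were not called: Sgk1 was -0.21 and Akt2 0.07 on the MOE430 2.0 arrays alone, the brighter Pim1 probeset -0.19 and the dimmer Pdpk1 probeset 0.06 on the MOE430A 2.0 arrays alone. On leaving out 1 mouse Sgk1 ran over -0.03 to 1.30 and the dimmer Pdpk1 probeset over -0.07 to 0.10. The causes were not tested. The other member probesets kept their direction and stayed uncalled under all alternatives run.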
